A study of Mus musculus with 8 samples.

Results

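The genes described here are the ligands, receptors and binding proteins of the FGF, PDGF and insulin-like growth factor (IGF) families, with the Kit ligand gene Kitl, the receptor gene Met, its ligand gene Hgf and the insulin receptor gene Insr. They were taken by gene symbol from the array's annotation, which gave 47 of 16593 genes and 68 of 25697 probes. Kit itself was not analysed here. The values are bead intensities of total RNA from dorsal root ganglia, the clusters of sensory neurons and glia beside the spinal cord, of mouse embryos at E12.5. One group, called the mutant, held 4 Erk1/2CKO(Wnt1) samples and the other held 4 wild-type samples. The name reads as a conditional knockout of the kinases Erk1 and Erk2 under Wnt1 control. It does not say whether either kinase was also lost in other cells. Wnt1-driven Cre acts in neural crest cells and their descendants, which include the neurons and glia of the ganglion. Vessels, blood and macrophages do not descend from these cells, and whether they kept each kinase is not given. The labels give the samples as derived from 3 litters without saying which sample came from which, whether a sample was 1 embryo or a pool, by which alleles each kinase was lost, or whether the wild-type embryos carried any of them. The probes for the Erk genes themselves were not analysed here.

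These growth factors act through receptor tyrosine kinases, which activate the Ras-ERK cascade together with the PI3K and phospholipase C branches. In developing ganglia they bear on the survival, growth and axon extension of neurons and on glial precursors, and PDGF-B from vessels recruits the mural cells that ensheath them. IGF binding proteins hold IGFs in the extracellular space and set how much of them reaches the receptor. The ERK cascade is thus one of several routes beneath these receptors.

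Across all genes the comparison of mutant with wild-type ganglia called 224 of 8935 tested genes, 125 higher and 99 lower in the mutant (44.2% of calls lower; under median scaling 76.1% of 238). That count was 67 without mutant replicate 1, 79 without mutant replicate 2, 128 without wild-type replicate 3 and 89 without wild-type replicate 4. Wild-type replicates 3 and 4 stood apart from the other 6 arrays on the first principal component (25.7 and 21.1, against -3.02 to -12.2, with 41.8% of the variance). Differences without this pair are given beside the genes whose difference it moves most, and the plot of differences without either wild-type pair shows them for all genes tested. Raw array medians ran from 138 to 147 in the mutant and from 144 to 159 in the wild-type. All arrays lay on 1 slide with mutant and wild-type in separate positions, so position and genotype cannot be told apart. Of 9 sensory neuron markers with a probe 8 passed the intensity filter described next, among them Isl1, Pou4f1, Prph and Tubb3. The glial markers Sox10 and Erbb3 were not analysed here.

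None of the growth factor and receptor genes passed the test. Genes were tested where the mean of their brightest probe over the 8 arrays exceeded the median of all probes, a log2 intensity of 6.71, and were called at an adjusted p under 0.05. Of the 47 genes 17 could be tested, and 0 of these 17 were called by limma, against 2.51% of all genes tested (1.40% higher and 1.11% lower in the mutant). At an adjusted p under 0.1 Fgf10 was the 1 called, against 4.96% of all genes. At an unadjusted p under 0.05 there were 3, Fgf10, Pdgfb and Igfbp7, each higher in the mutant, which is 17.6% of the 17 against 18.1% of all genes (9.51% higher and 8.55% lower). The mutant and wild-type arrays did not overlap for 1 of the 17, Fgf10, against 12% of all genes (6.30% higher and 5.65% lower). Differences were positive for 11 and negative for 6, with a median of 0.09 in log2 units against 0.0018 over all genes. Without wild-type replicates 3 and 4 they were positive for 9 and negative for 8 (median 0.03). Without replicates 1 and 2 they were positive for 11 and negative for 6 (median 0.13). Under median scaling 9 were positive and 8 negative (median 0.06, against -0.06 over all genes). With no filter the median of the 47 genes was 0.02. The 95% interval of the difference lay within a 2-fold change in either direction for 17 of the 17 genes and within a 1.5-fold change for 13. The exceptions were Pdgfb, Igf1, Pdgfa and Fgf13. These folds are of intensity under the reported scaling and do not bound changes in transcript number. Fgf10 read near the filter level, and the Igf2 difference depended on the scaling, as given below.

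**Figure D1:**
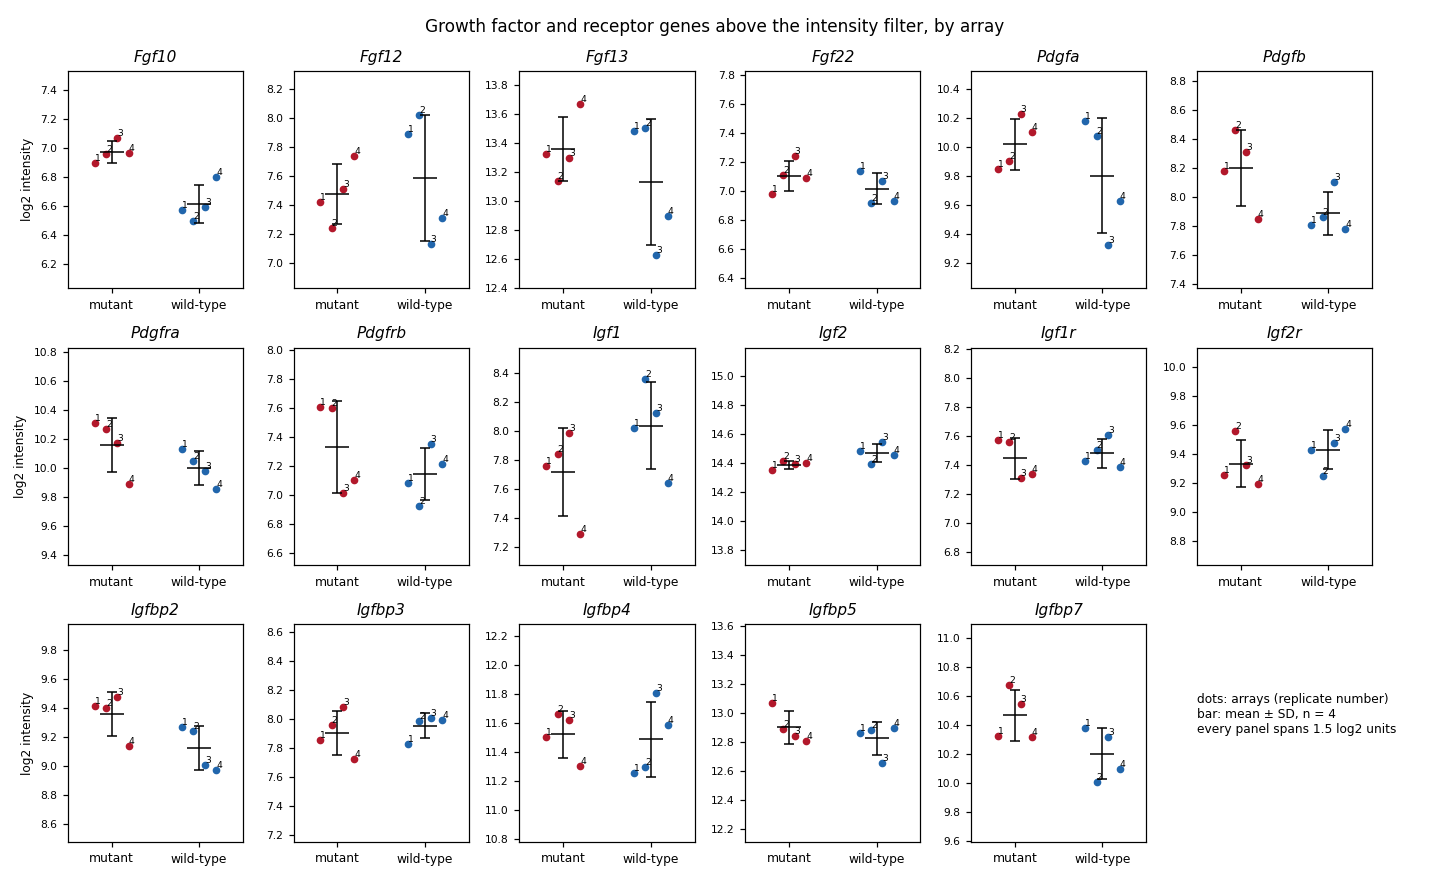
Log2 intensity of the 17 tested genes on each array, mutant left and wild-type right, with the replicate number beside each point and bars for mean and SD (n = 4); every panel spans 1.5 log2 units. Only Fgf10 has mutant arrays that all lie above the wild-type arrays, and Fgf12, Fgf13, Pdgfa, Pdgfra and Igfbp2 have wild-type replicates 3 and 4 below replicates 1 and 2.

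Among the secreted FGF ligands Fgf10, a mesenchymal signal to epithelia that acts mainly through a splice form of Fgfr2, came closest to the threshold. Its brightest probe gave log2 intensities of 6.90, 6.96, 7.07 and 6.97 on the mutant arrays, against 6.57, 6.50, 6.59 and 6.80 on the wild-type arrays. Every mutant array was above every wild-type array, and 3 of the 4 wild-type arrays lay under the filter level, so the gene was tested through its mutant values. The difference was 0.36 ± 0.09 (SE, n = 4 per group), a 1.28-fold higher level with a 95% interval of 1.12 to 1.47, and it was not called (limma adjusted p = 0.0639). A second Fgf10 probe, under the filter level, read 6.64, 6.78, 6.69 and 6.99 in the mutant, against 6.05, 6.39, 6.46 and 6.72 in the wild-type. Its groups overlapped through wild-type replicate 4, and its difference was 0.37. The third probe differed by 0.12. Without wild-type replicates 3 and 4 Fgf10 stood at 0.44 and was called higher (limma adjusted p = 0.0456), the only one of the 17 genes that was, against 2.37% of all genes. Without wild-type replicates 1 and 2 it stood at 0.28 and was not called (adjusted p = 0.101).

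The promoter windows below are those of Fgf10 and Igfbp7, shown because they are the genes with an unadjusted p under 0.05 for which RefSeq's table (GRCm38.p6) holds an entry. Each is the 250 bases before the annotated start, 5′ to 3′ on the gene's strand, at chr13:118714449-118714698 (+ strand) for Fgf10 and chr5:77408046-77408295 (- strand) for Igfbp7. Capitals mark GGAA or its reverse complement TTCC, the core recognised by ETS factors, the family that holds Etv4.
Fgf10: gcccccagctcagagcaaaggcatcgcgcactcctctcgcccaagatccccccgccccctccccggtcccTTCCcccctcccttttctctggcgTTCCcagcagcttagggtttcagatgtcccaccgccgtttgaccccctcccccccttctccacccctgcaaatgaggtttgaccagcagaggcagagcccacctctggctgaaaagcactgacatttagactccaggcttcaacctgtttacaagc
Igfbp7: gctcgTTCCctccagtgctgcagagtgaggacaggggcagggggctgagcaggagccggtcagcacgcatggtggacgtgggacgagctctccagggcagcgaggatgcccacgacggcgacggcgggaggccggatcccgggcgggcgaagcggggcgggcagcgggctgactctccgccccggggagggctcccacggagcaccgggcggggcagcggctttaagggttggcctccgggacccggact
The core occurred 2 times in the Fgf10 window and 1 time in the Igfbp7 window, and 93.4% of 32817 promoter windows of the same length hold at least 1. The longer ETS form CCGGAAGT and the AP-1 site TGACTCA, searched on both strands, had 0 matches in either window and occur in 2.88% and 4.46% of all windows.

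Fgf13 and Fgf12 belong to the FGF homologous factors, which stay inside the cell and bind voltage-gated sodium channels. Fgf13 read 13.33, 13.14, 13.30 and 13.67 on the mutant arrays, against 13.48, 13.51, 12.63 and 12.90 on the wild-type arrays. The groups overlapped: wild-type replicates 1 and 2 were inside the mutant range, and replicates 3 and 4 were below it. The difference was 0.23 ± 0.20 (SE, 4 arrays each; limma adjusted p = 0.586), and its other probes gave 0.30 and 0.077. Without wild-type replicates 3 and 4 Fgf13 differed by -0.14 (adjusted p = 0.657), and without replicates 1 and 2 by 0.59, with a call (adjusted p = 0.0353). Fgf12 had the same split of the wild-type, with 7.42, 7.24, 7.51 and 7.74 in the mutant, against 7.89, 8.02, 7.13 and 7.31 in the wild-type. Its difference of -0.11 ± 0.20 (adjusted p = 0.816) became -0.48 without replicates 3 and 4 and 0.26 without replicates 1 and 2, with no call in either, and its second probe differed by -0.03 with all arrays. Fgf22, which promotes presynaptic assembly in the brain, ranged from 6.98 to 7.24 in the mutant and from 6.92 to 7.14 in the wild-type (difference 0.09 ± 0.09, adjusted p = 0.636, and 0.04 at a second probe).

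Pdgfa, the PDGF ligand that acts through Pdgfra, followed the same arrays. It read 9.85, 9.90, 10.23 and 10.10 in the mutant, against 10.18, 10.08, 9.33 and 9.63 in the wild-type, so that wild-type replicates 3 and 4 were the lowest of all 8. The difference of 0.22 ± 0.18 (limma adjusted p = 0.560) became -0.11 without these replicates (adjusted p = 0.701) and 0.54 without replicates 1 and 2, with a call (adjusted p = 0.0341). Fgf13 and Pdgfa were the 2 of 17 genes called in that last comparison, in which 13.6% of all genes were called. Wild-type replicates 3 and 4 both lay below replicates 1 and 2 for 5 of the 17 genes (these 3, Pdgfra and Igfbp2). The same order held for 6 of the 8 tested sensory neuron markers, though not for Tubb3 or Tlx3. The share of all tested genes with this order was not counted, so these counts set neither group apart from other genes. Tlx3 was the 1 marker of that list called, higher in the mutant (0.75 ± 0.12, adjusted p = 0.0108). The mean level of the 8 markers, as a deviation from the mean of all arrays, ran from -0.05 to 0.25 in the mutant, and in the wild-type it was 0.17, 0.06, -0.30 and -0.20 for replicates 1 to 4. Red blood cell markers (6 of 9 with a probe tested) stood at 0.90 and 0.50 on replicates 3 and 4, and cycling cell markers (9 of 12) at 0.73 and 0.63. On the other arrays these lists lay between -0.41 and -0.07 and between -0.37 and -0.13. The part of these markers in the results was not tested. In ganglion RNA fewer cells of a type and less RNA per cell cannot be told apart.

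**Figure D2:**
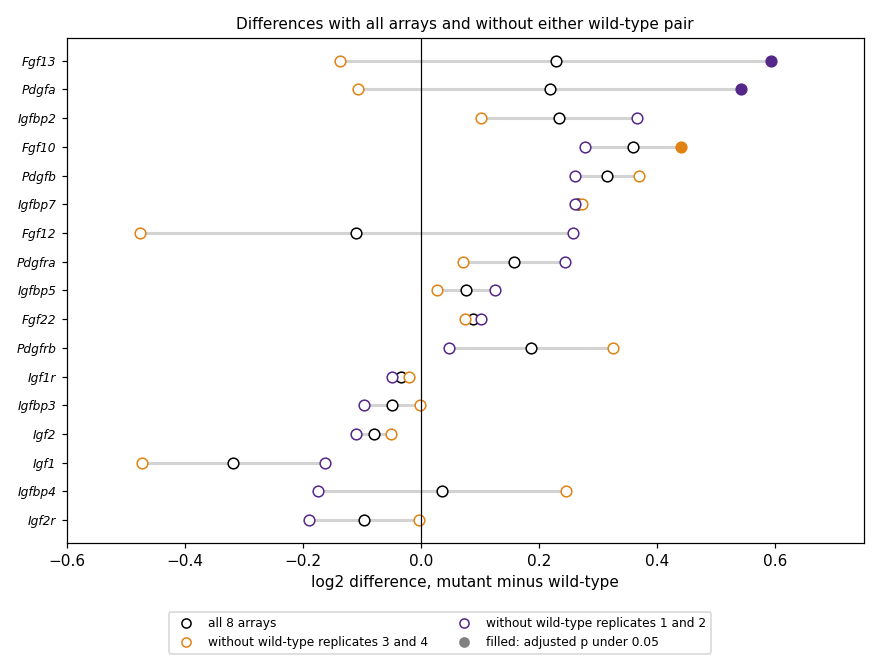
Log2 difference, mutant minus wild-type, of the 17 tested genes with all 8 arrays (black), without wild-type replicates 3 and 4 (orange) and without replicates 1 and 2 (purple); filled points have an adjusted p under 0.05. Fgf13 lies at -0.14 and 0.59 and Pdgfa at -0.11 and 0.54 without the one or the other pair, while Igfbp7 stays between 0.26 and 0.27.

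Pdgfb, the ligand by which endothelial cells recruit mural cells, read 8.18, 8.46, 8.31 and 7.85 in the mutant, against 7.81, 7.86, 8.10 and 7.78 in the wild-type. Its 3 highest values came from mutant arrays, while mutant replicate 4 lay within the wild-type range. The difference was 0.31 ± 0.13 (SE, 4 arrays each; limma adjusted p = 0.248). The second probe of Pdgfb, under the filter level, differed by 0.012. Pdgfrb, the receptor for PDGF-B on mural cells, read 7.61, 7.60, 7.01 and 7.11 in the mutant, against 7.09, 6.93, 7.35 and 7.22 in the wild-type. Mutant replicates 1 and 2 were above all other arrays and mutant replicates 3 and 4 were within the wild-type range, for a difference of 0.19 ± 0.16 (adjusted p = 0.564), which was 0.33 without wild-type replicates 3 and 4, but 0.05 when replicates 1 and 2 were left out. Pdgfra, a receptor of mesenchyme and of oligodendrocyte precursors, read 10.31, 10.27, 10.17 and 9.89 in the mutant, against 10.13, 10.05, 9.98 and 9.85 in the wild-type (0.16 ± 0.11, adjusted p = 0.475). Here too mutant replicate 4 was the lowest of its group and lay within the wild-type range, and the difference of Pdgfra was 0.07 without wild-type replicates 3 and 4, but 0.24 when replicates 1 and 2 were left out. Of 10 tested endothelial and mural markers 0 were called, and their mean level ran from -0.17 to 0.14 in the mutant, lowest on replicate 4, and from -0.13 to 0.12 in the wild-type. Mesenchyme and meninges markers (13 of 15 tested, 1 called, Pdgfrl at 0.38 ± 0.08 with limma adjusted p = 0.0377) were lowest on replicate 4 in both groups. They stood at -0.21 on mutant replicate 4 and at -0.21 on wild-type replicate 4. Their part in these values was not tested.

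The IGF ligands gave negative differences. Igf1, a growth and survival factor, read 7.76, 7.84, 7.99 and 7.29 in the mutant, against 8.02, 8.36, 8.12 and 7.64 in the wild-type. The lowest value of each group came from replicate 4, and 3 mutant arrays lay between wild-type replicate 4 and the other wild-type arrays. Its difference of -0.32 ± 0.18 (SE, 4 arrays each; limma adjusted p = 0.374) was -0.47 without wild-type replicates 3 and 4 (adjusted p = 0.231), -0.16 without replicates 1 and 2 (adjusted p = 0.635) and, with mutant replicate 4 left out, -0.18 (adjusted p = 0.611). Macrophages and mesenchyme are known sources of Igf1. Macrophage markers (7 of 8 tested, 0 called) stood at 0.31, 0.60, 0.97 and -0.55 in the mutant, against -0.35 to -0.27 in the wild-type. Mesenchyme markers stood at 0.18, 0.15, 0.09 and -0.21 in the mutant, against 0.01, -0.02, 0.0015 and -0.21 in the wild-type. Neither list was tested against Igf1. Igf2, the imprinted fetal growth factor, read 14.35, 14.41, 14.39 and 14.40 in the mutant, against 14.48, 14.39, 14.54 and 14.45 in the wild-type. The spread within either group was small, wild-type replicate 2 fell inside the mutant range, and the difference was -0.08 ± 0.07 (adjusted p = 0.581). This depended on the scaling: under median scaling it was -0.22 (adjusted p = 0.179). The raw intensities of Igf2 did not overlap, with 18843 to 20427 in the mutant and 23801 to 25938 in the wild-type. Raw array medians also ran higher in the wild-type, with some overlap. The share of all probes without overlap in raw intensity was not counted, so the raw values do not set Igf2 apart.

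The IGF receptors differed less than their arrays spread. Igf1r, the kinase that transmits both IGFs, read 7.58, 7.56, 7.31 and 7.34 in the mutant, against 7.43, 7.50, 7.61 and 7.38 in the wild-type (difference -0.03 ± 0.09, SE, 4 arrays each; limma adjusted p = 0.883). The interval of this difference runs from -0.24 to 0.17. Igf2r, the mannose 6-phosphate receptor that takes Igf2 into lysosomes, read 9.25, 9.56, 9.32 and 9.20 at its brightest probe in the mutant, against 9.43, 9.25, 9.47 and 9.57 in the wild-type (-0.10 ± 0.10, adjusted p = 0.674). Its other probe above the filter turned the direction, with 9.52, 9.58, 9.31 and 9.37 in the mutant, against 9.01, 9.08, 9.39 and 9.39 in the wild-type and a difference of 0.23. The probes of Igf2r give no common direction, and at the brightest probe the difference was -0.0030 without wild-type replicates 3 and 4, but -0.19 when replicates 1 and 2 were left out.

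Of the 7 IGF binding protein genes 5 were tested and 0 were called. Igfbp7, a binding protein of low affinity for IGFs that is prominent in vessels, read 10.33, 10.68, 10.55 and 10.32 in the mutant, against 10.38, 10.01, 10.32 and 10.10 in the wild-type (difference 0.27 ± 0.12, SE, 4 arrays each; limma adjusted p = 0.263). Mutant replicates 2 and 3 were above all wild-type arrays, and wild-type replicate 1 was above the remaining mutant arrays, and a second probe differed by 0.078. Igfbp2 read 9.41, 9.41, 9.48 and 9.14 at its brightest probe in the mutant, against 9.27, 9.24, 9.01 and 8.98 in the wild-type (0.23 ± 0.11, adjusted p = 0.280), and its second probe differed by 0.19. Its groups overlapped through mutant replicate 4. The difference of Igfbp2 was 0.10 without wild-type replicates 3 and 4 (adjusted p = 0.690) and 0.37 without replicates 1 and 2 (adjusted p = 0.0646). Igfbp5, Igfbp4 and Igfbp3 differed by 0.08 ± 0.09, 0.04 ± 0.13 and -0.05 ± 0.09, and their arrays overlapped. Igfbp4 stood at 0.25 without wild-type replicates 3 and 4 (limma adjusted p = 0.304) and at -0.18 without replicates 1 and 2 (adjusted p = 0.387). Under median scaling Igfbp5 and Igfbp4 turned to -0.085 and -0.077, and a second Igfbp4 probe differed by 0.19 in the reported scaling.

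**Figure D3:**
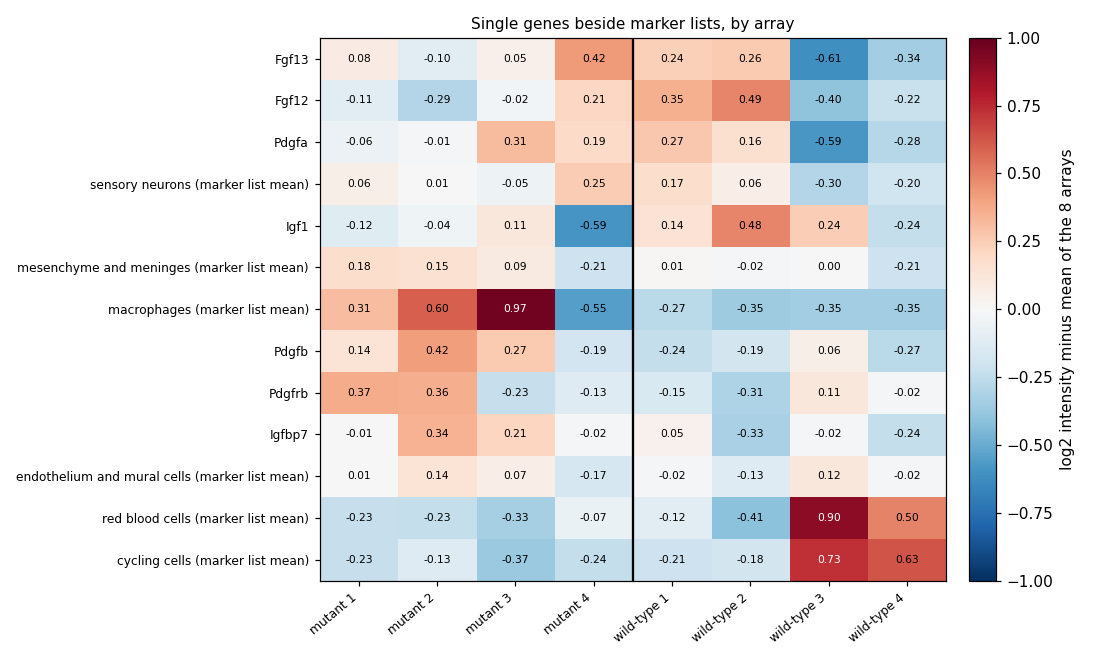
Log2 intensity on each array as a deviation from the mean of the 8 arrays, for 7 tested genes and for the mean of 6 marker lists, mutant arrays on the left. Wild-type replicates 3 and 4 are low for Fgf13, Fgf12, Pdgfa and sensory neuron markers and high for red blood cell and cycling cell markers, and mutant replicate 4 is low for Igf1 and macrophage markers.

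The remaining 30 genes lay under the filter level, 63.8% of the 47 against 46.2% of all genes, and 25 of them had no array above the level at any probe. No detection p-values were given, so whether these probes read signal or background is not known. All 4 FGF receptor genes were among them. Their 8 probes stayed between 5.91 and 6.64 on every array, and differences ran from -0.12 to 0.25. Met, the receptor for hepatocyte growth factor, Hgf, Kitl and Insr were likewise under the level on all 8 arrays, with differences between -0.08 and 0.15. The 18 FGF ligand genes under the filter, with 23 probes, differed by -0.16 to 0.21; Fgf7, Fgf9, Fgf15 and Fgf23 reached the level on at least 1 array. Igfbp1 and Igfbp6 differed by 0.02 and 0.07 and Pdgfd by 0.05.

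When all probes were tested one by one with no filter, 0 of the 68 probes were called by limma, and 8 had an unadjusted p under 0.05 (11.8%, against 12.4% of all named probes). Arrays did not overlap for 3 of the 68 (4.41%, against 7.64% of all named probes, 3.98% higher and 3.67% lower): a probe of Fgf10, a probe of Fgfr2 and the probe of Fgf2. The Fgfr2 probe read 6.40, 6.54, 6.53 and 6.41 in the mutant, against 6.05, 6.31, 6.22 and 6.30 in the wild-type, while the other probes of Fgfr2 differed by 0.0043 and 0.16 with overlapping arrays. Fgf2 read 6.03, 6.02, 6.03 and 6.08 in the mutant, against 6.15, 6.30, 6.12 and 6.20 in the wild-type. Both lay under the filter level on all arrays. Pdgfc, a ligand for Pdgfra, read 6.20, 6.46, 6.35 and 6.62 in the mutant, against 6.68, 6.54, 6.80 and 6.81 in the wild-type, with a difference of -0.30 and a limma adjusted p of 0.229 over all probes. Only mutant replicate 4 and wild-type replicate 2 kept its groups from separating.

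Genes that act beside these ligands and receptors are counted by list below, against 2.51% called of all genes tested (1.40% higher and 1.11% lower). The lists are short, so 1 call in either direction sets none of them apart from that share. They were chosen with earlier results of these data known, so their counts are no independent comparison. Of 9 tested feedback and output genes of FGF signalling 5 fell (Etv4, Spry3, Dusp6, Etv1 and Spred1), 0 rose and 4 did not pass. The median was -0.62, and 5 were also called without wild-type replicates 3 and 4. The name of this list does not tie the falls to FGF, and which receptors lie upstream of them was not tested. Etv4, an ETS factor gene, read 6.46, 6.31, 6.24 and 6.33 in the mutant, against 8.35, 8.20, 7.73 and 8.04 in the wild-type. All 4 mutant arrays of Etv4 lay under the filter level, so it was tested through its wild-type values, and the size of its difference (-1.75 ± 0.13) is set against readings near the floor. Etv1, of the same ETS subfamily, differed by -0.94 ± 0.12 (limma adjusted p = 0.0050), with 2 of 4 mutant arrays under the level. Dusp6, an ERK phosphatase gene, differed by -0.91 ± 0.11 (adjusted p = 0.0045). Of the 4 that did not pass, Etv5, also of this ETS subfamily, differed by -0.04 (limma adjusted p = 0.910). The others were Spry4 (-0.19), Il17rd (-0.02) and Spred3 (0.07). Spry3, a Sprouty protein gene, read 8.34, 8.35, 8.34 and 8.53 in the mutant, against 9.22, 9.20, 9.00 and 9.10 in the wild-type. Its groups were well apart, and it fell by 0.74 (SE 0.08, 4 arrays each; limma adjusted p = 0.00247). Glial markers (4 of 6 with a probe tested, 1 called, Egr2 at -1.498 ± 0.10 with all 4 mutant arrays under the level) stood at -0.48 to -0.26 in the mutant and 0.23 to 0.57 in the wild-type, and their part in the values of these lists was not tested. Spry1, Spry2 and Spred2, further feedback inhibitors, were under the filter level. Of 19 tested FGF co-receptor, scaffold and heparan sulphate genes 1 rose, 1 fell and 17 did not pass, with a median of -0.03. The gene that rose was Flrt1, a membrane protein that binds FGF receptors. It read 8.96, 9.08, 8.73 and 8.60 in the mutant, against 8.34, 8.33, 7.83 and 7.73 in the wild-type, a difference of 0.78 ± 0.16 (adjusted p = 0.0381). The gene that fell, Fgfr1op2, is named for a fusion with Fgfr1 in leukaemia and is no known FGF pathway component. It fell by 0.83 (SE 0.08, adjusted p = 0.00161), and by 0.35 at its second probe.

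**Figure D4:**
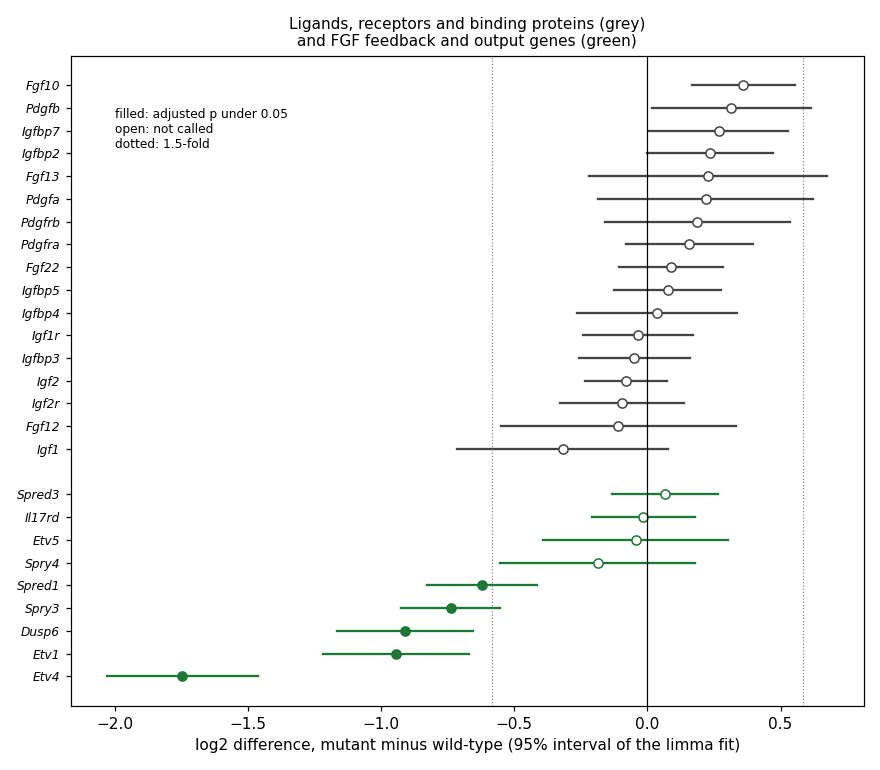
Log2 difference, mutant minus wild-type, with the 95% interval of the fit for the 17 tested growth factor and receptor genes (grey) and for 9 feedback and output genes (green); filled points are called and dotted lines mark a 1.5-fold change. All 17 grey points are open and lie between -0.32 and 0.36, and 5 green points are filled and lie between -1.75 (Etv4, with its mutant arrays under the filter level) and -0.62. Both sets were chosen with earlier results of these data known.

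Flrt1 lost its call without wild-type replicates 3 and 4 (0.50, adjusted p = 0.104), without either of them alone (adjusted p = 0.0935 and 0.103) and without mutant replicate 1, 2 or 3 (adjusted p = 0.130, 0.116 and 0.0664). It was also lost under median scaling (0.72, adjusted p = 0.0634). Of 7 tested PDGF, Kit and Met pathway genes 1 fell, 0 rose and 6 did not pass, with a median of -0.03. It was Nrp1, the neuropilin co-receptor of semaphorins and VEGF that also binds PDGF, with 12.33, 12.16, 12.07 and 12.20 in the mutant, against 12.75, 12.68, 12.57 and 12.54 in the wild-type. All mutant arrays of Nrp1 lay below the wild-type arrays, and it fell by 0.44 (SE 0.09, limma adjusted p = 0.0290), and by 0.38 at a second probe. Leaving out 1 array ended the call of Nrp1 (adjusted p between 0.0527 and 0.0911) except where that array was wild-type replicate 3. Of 10 tested IGF and insulin pathway genes 0 were called, with a median of -0.07; the brightest were Grb10, an imprinted adaptor that restrains insulin and IGF receptors (-0.23 ± 0.11), and Igf2bp3, which binds Igf2 mRNA (-0.02 ± 0.13). Of 21 tested shared adaptors and PI3K and phospholipase C genes 1 rose, 0 fell and 20 did not pass, with a median of 0.09. This was Pik3r2, a regulatory subunit of PI3K, with 7.88, 7.80, 7.76 and 7.65 in the mutant, against 7.44, 7.42, 7.49 and 7.27 in the wild-type and a difference of 0.37 ± 0.08 (adjusted p = 0.0499). It was no longer called under 16 of 19 alternatives, among them leaving out any single array but mutant replicate 4.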

How the data were processed

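Total RNA of 4 mutant and 4 wild-type ganglion samples was hybridised to Illumina bead arrays. The deposited files hold linear bead intensities and the authors' processed table of log2 values, which equals log2 of the deposited intensities after quantile normalization. BeadStudio is named in the submitters' processing notes. Intensities were corrected with normexp (offset 50), turned to log2 and quantile normalized, and limma 3.58.1 in R 4.3.3 (lmFit, eBayes) compared the groups with Benjamini-Hochberg adjustment over 9664 features, named genes (8935) and unnamed probes (729), with the brightest probe per gene. Members were matched on the platform's symbol. For the fit, 23962 probes took RefSeq's symbol for the platform's gene identifier, and 16 kept the platform's symbol. In all 23978 probes had 1 symbol, 0 had several and 1719 had none. Simulated data of this size, drawn with independent noise on each array, recovered 80% of 1.5-fold and 97.5% of 2-fold changes. No litter effect, shared shift of arrays or loss of fold near the floor was simulated, so recovery in the real arrays may be lower. Genes given in full were any called gene, the 12 tested with the smallest adjusted p, and tested receptors; of each other list, called genes (at most 4) or the 2 brightest were named. Fgf12 was added after its values were seen. Members and lists were chosen with earlier results of these data known. The p-values measure the spread between samples. These came from 3 litters, so some of them share a litter, and the fit could not take litter into account. The number of arrays limits the precision. Alternatives changed the background correction, scaling, filter, probe summary, threshold, model and arrays used; leaving out either pair of wild-type arrays followed an earlier description of these data, and testing all probes one by one was chosen after seeing the data.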

Additional observations from a re-analysis of the deposited data

Results flagged for a closer look

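In wild-type ganglia 2 binding protein genes each had 1 array far from the others of its group by Dixon's test, out of 34 groups of 4 arrays examined, and chance marks about 1 in 20 such groups. Igfbp5 read 12.66 on wild-type replicate 3, against 12.86 to 12.90 on the other wild-type arrays. Igfbp3 read 7.83 on wild-type replicate 1, against 7.99 to 8.01 on the others.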

How the results depend on the processing

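No growth factor or receptor gene was called lower under any alternative run. Called higher were 1 at an adjusted p under 0.1 (Fgf10), 1 without wild-type replicates 3 and 4 (Fgf10) and 2 without wild-type replicates 1 and 2 (Fgf13 and Pdgfa), against 0 as reported and 0 to 0 without each replicate in turn. The count over all genes, 224, was 341 with array weights, 443 at the looser threshold, 1218 without wild-type replicates 1 and 2, and 67 to 200 without each replicate. The feedback and output genes called lower numbered 3 with a filter at the upper quartile, where fewer were tested. With the replicate number as a block the count over all genes was 82; deviations of same-numbered arrays correlated at -0.28 to -0.05, so the numbers were not taken to pair samples, and Nrp1 was not called (adjusted p = 0.0815). Directions turned for these genes: Igfbp4 (-0.077) and Igfbp5 (-0.085) under median scaling, which moved the median of all genes by -0.06; Igf2r (0.066) with the mean of its probes; Igf1r (0.024) with array weights; Fgf13 (-0.14) and Pdgfa (-0.11) without wild-type replicates 3 and 4; Fgf12 (0.26) and Igfbp4 (-0.18) without replicates 1 and 2. Without each replicate in turn Igfbp4 ran from -0.042 to 0.14, Igf1r from -0.078 to 0.0095, Igfbp3 from -0.11 to 0.011 and Fgf12 from -0.26 to 0.035. The cause was not tested. With 4 arrays per group the median standard error of the 17 genes was 0.11.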
